A study of Mus musculus with 66 samples.

Results

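The chromatin regions assigned to 3 neurotrophin genes, Bdnf, Ntrk2 and Ntrk3, were read out from 7 lists of regions at which histone H3 differed between groups of mouse libraries. Every listed region that carried one of these gene names was taken, with no use of its values, which gave 30 of 57678 regions: 5 in Bdnf, 13 in Ntrk2 and 12 in Ntrk3. Of these, 25 came from CATCH-IT, 1 from H3.3 after 30 min of KCl, 2 from H3.3 after 5 hr of KCl and 2 from H3.3 in the nuclei of mice kept in enriched housing. No region of the 3 genes was listed for H3.3 after 2 hr of KCl, for H3.1/2 after 5 hr of KCl or for H3.3 in NeuN-positive nuclei.

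Bdnf encodes brain-derived neurotrophic factor, a secreted protein that neurons make in larger amounts when they are active, and its gene has a row of alternative first exons, each with its own promoter, spliced to a shared coding exon. Ntrk2 encodes TrkB, the receptor tyrosine kinase for BDNF, as a full-length form with a kinase domain and as truncated forms that lack it. Ntrk3 encodes TrkC, the related receptor whose main ligand is neurotrophin-3, the product of Ntf3, so that it belongs to the Trk family but is not the receptor for BDNF. H3.3 is the histone H3 variant that enters chromatin outside DNA replication, and it replaces the replication-coupled forms H3.1 and H3.2 as neurons age.

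Cortical neurons were taken from C57bl/6 embryos at E16.5 and kept 8 days in vitro. They were stimulated with isotonic KCl, which depolarises the membrane, for 30 min, 2 hr or 5 hr, or were left unstimulated for the same time (control). CATCH-IT, which isolates chromatin holding newly made, metabolically labelled histones on streptavidin beads, was done after 5 hr of KCl or no stimulation. Nuclei of the adult hippocampus came from C57bl/6 mice of about 7 weeks after 4 weeks of environmental enrichment or after normal housing, and were sorted for NeuN, a protein of neuronal nuclei. The NeuN-negative nuclei hold the glial and other non-neuronal cells of the hippocampus together. Culture groups were biological triplicates per the labels. The same labels name biological duplicates for the animals, whereas the NeuN-negative lists held 3 library values per group, and how many animals gave each library is not stated. In mixed chromatin a lower count cannot tell fewer cells with H3.3 at a place from less H3.3 there in each cell.

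Every listed region had passed the authors' own call on these same libraries, and "gained" and "lost" are the directions they listed, KCl over control or enriched over normally housed. The smallest absolute log2 fold change listed was 1.59 in the lists that held these genes, so that a region missing from a list was not shown to be unchanged. The library values were the authors' normalised read counts, given in a fixed order without library names, and are called the first, the second and the third value below. Each read was worth 0.864 to 1.05 normalised counts in the KCl and 0.833 to 1.27 in the control H3.3 libraries at 30 min. At 5 hr it was worth 0.878 to 0.992 in KCl and 0.970 to 1.18 in control H3.3 libraries. In CATCH-IT it was worth 0.533 to 2.72 in KCl and 0.315 to 1.39 in control libraries, and in NeuN-negative nuclei 0.542 to 2.64 in enriched and 0.676 to 0.948 in normally housed libraries. The values below therefore rest on 0 to 20 reads per library, and their precision is that of small counts.

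The DNA under the H3.3 regions and under the region nearest to a Bdnf promoter is shown because the results turn on these places. Sequences are 5′ to 3′ from the mouse build mm9, on the strand of the gene, in lower case with capitals for matches to the motifs searched on both strands. The motifs were TGACGTCA and its shorter part TGACG (cAMP response element), TGANTCA (a loose AP-1 form, N any base) and CACGTG (E-box). Among the 50 regions of 240 bp in the H3.3 list of 5 hr, 0% held TGACGTCA, 6.0% TGACG, 10.0% TGANTCA and 8.0% CACGTG. A match is a run of letters and not evidence of a bound factor. Bdnf lies on the plus strand of chromosome 2 at 109514857 to 109567204, Ntrk2 on the plus strand of chromosome 13 at 58907957 to 59235331 and Ntrk3 on the minus strand of chromosome 7 at 85337248 to 85723294. The sequences begin with the Bdnf H3.3 region of 5 hr at chr2:109519461-109519700, which had none of the motifs:
Bdnf, H3.3, 5 hr: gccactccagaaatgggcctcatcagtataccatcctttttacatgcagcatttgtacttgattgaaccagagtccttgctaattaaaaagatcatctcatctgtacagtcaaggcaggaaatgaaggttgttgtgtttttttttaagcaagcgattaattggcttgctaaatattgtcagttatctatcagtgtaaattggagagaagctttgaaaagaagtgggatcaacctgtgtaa
The first 200 bases of the CATCH-IT region beside Bdnf exon III, chr2:109516661-109516860, held 1 match, to TGANTCA, which 10.8% of the CATCH-IT regions of its full length also held:
Bdnf, CATCH-IT: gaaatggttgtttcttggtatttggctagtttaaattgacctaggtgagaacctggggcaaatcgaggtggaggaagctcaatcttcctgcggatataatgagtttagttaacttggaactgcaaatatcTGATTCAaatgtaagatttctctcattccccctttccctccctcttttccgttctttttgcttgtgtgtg
The Ntrk3 H3.3 region of 30 min, chr7:85350461-85350700 on the minus strand, had no match:
Ntrk3, H3.3, 30 min: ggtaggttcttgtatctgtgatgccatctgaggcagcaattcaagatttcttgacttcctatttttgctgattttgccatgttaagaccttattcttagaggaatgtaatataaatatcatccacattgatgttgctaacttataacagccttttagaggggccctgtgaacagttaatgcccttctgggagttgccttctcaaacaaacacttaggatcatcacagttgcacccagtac
The Ntrk3 H3.3 region of 5 hr, chr7:85632721-85632920 on the minus strand, had no match:
Ntrk3, H3.3, 5 hr: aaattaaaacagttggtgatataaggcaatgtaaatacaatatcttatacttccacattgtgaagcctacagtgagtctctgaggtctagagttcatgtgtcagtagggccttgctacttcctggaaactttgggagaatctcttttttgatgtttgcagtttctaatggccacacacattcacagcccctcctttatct
The Ntrk2 region that lost H3.3 in NeuN-negative nuclei, chr13:58955701-58955900, had no match:
Ntrk2, H3.3, NeuN-negative, lost: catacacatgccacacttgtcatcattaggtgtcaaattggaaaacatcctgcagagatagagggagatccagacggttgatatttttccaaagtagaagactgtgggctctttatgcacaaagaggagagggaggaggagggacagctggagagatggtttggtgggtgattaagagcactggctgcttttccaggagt
The Ntrk2 region that gained H3.3 begins inside the last coding bases of the transcript Ntrk2-203, chr13:59033384-59033418, where the capitals mark the 18 of 35 bases inside the region. The whole gained region held 1 match to TGACG, as did 4.90% of the NeuN-negative regions of that length:
Ntrk2-203, end of the coding part: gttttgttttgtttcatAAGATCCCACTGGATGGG

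**Figure D1:**
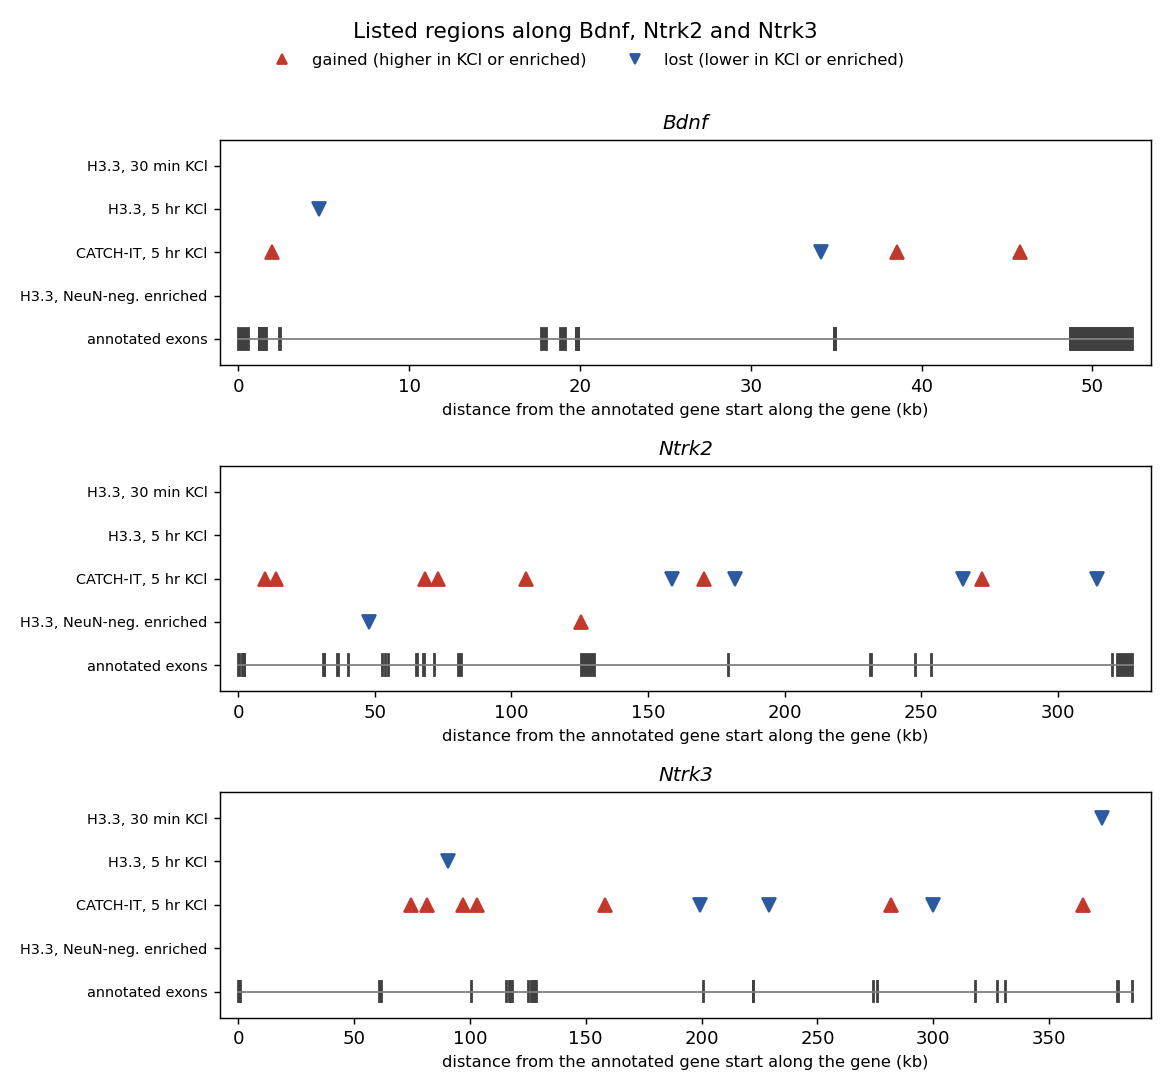
Positions of the 30 listed regions along Bdnf, Ntrk2 and Ntrk3, as distance from the annotated gene start in kb, with upward triangles for regions gained and downward triangles for regions lost in KCl or enriched samples, and grey boxes for annotated exons. The 3 H3.3 regions of the cultures are all losses, while the CATCH-IT regions include 17 gains and 8 losses spread along the genes.

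After 5 hr of KCl, H3.3 at Bdnf was lower in a single region of 240 bp inside the gene. The region lies in an intron at 4723.5 bp from the gene start. It is 2080 bp beyond the first exon of transcript Bdnf-005, which corresponds to exon III, and 12893 bp before the start of Bdnf-006, which corresponds to exon IV, the promoter best known for its response to activity. H3.3 was 5.90, 5.27 and 2.98 normalised counts in KCl libraries, against 15.35, 17.43 and 14.55 in control libraries. Behind these values stood 6, 6 and 3 reads in KCl and 13, 17 and 15 reads in control libraries. All 3 KCl libraries were low and the groups did not overlap, as was the case in 100% of the regions on that list. The mean was 4.72 ± 1.54 in KCl and 15.8 ± 1.49 in control neurons (SD, n = 3 each). The authors' deposited table gave a ratio to input of 0.70 in KCl and 3.50 in control neurons and a log2 fold change of -1.74. Its adjusted p was 0.0863. Of the Bdnf and Ntrk3 regions at 5 hr, 0 of 2 had an adjusted p of 0.05 or less, and over the whole list 3.00% of regions did. At an unadjusted p under 0.05 both were called, with 1.59e-05 for Bdnf and 3.94e-05 for Ntrk3 in the authors' deposited table, as were 100% of the regions on that list.

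Ntrk3 had 1 region listed as lower in H3.3 after KCl at 30 min and 1 at 5 hr, at different places in the gene. At 30 min the region lay near the 3′ end, 372714 bp from the gene start, or 96.5% of the way along the gene. It falls in an intron that is spanned by 1 of the 4 annotated transcripts, Ntrk3-001, whose nearest exon is 6624 bp away. H3.3 there was 3.46, 6.31 and 4.12 in KCl libraries, against 17.75, 14.16 and 12.70 in control libraries. The 4, 6 and 4 reads in KCl libraries were fewer than the 14, 17 and 13 reads in control libraries, and the groups did not overlap (100% of that list did not). The mean was 4.63 ± 1.49 in KCl and 14.9 ± 2.60 in control neurons (SD, n = 3 each). In the authors' deposited table the ratio to input was 0.95 in KCl and 1.87 in control neurons, and the log2 fold change was -1.68, adjusted p 0.0266. This was 1 of 1 member region with an adjusted p of 0.05 or less, beside 98.5% of the whole 30 min list, so that passing this threshold set it apart from few other regions there.

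At 5 hr the Ntrk3 region lay in an early intron, 90473.5 bp or 23.4% along the gene, spanned by 3 of the 4 transcripts. H3.3 was 1.97, 2.63 and 4.96 in KCl libraries, against 14.16, 13.33 and 9.70 in control libraries. The 2, 3 and 5 reads of KCl libraries all lay under the 12, 13 and 10 reads of control libraries. The mean was 3.19 ± 1.57 in KCl and 12.4 ± 2.37 in control neurons (SD, n = 3 each). The authors' deposited table gave a ratio to input of 0.73 in KCl and 2.36 in control neurons and a log2 fold change of -1.96. The adjusted p of 0.103 missed the threshold of 0.05, as that of Bdnf did at the same time.

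The 3 H3.3 regions of the cultures were losses, and none was a gain. Gains made up 20.1% of all regions listed at 30 min and 44.2% of those listed at 5 hr, so that losses were the commoner direction in both lists. At least 1 region was listed for 1.43% of 22238 protein-coding genes at 30 min, 1.81% at 2 hr and 1.98% at 5 hr. Ntrk2, the BDNF receptor gene, had no listed H3.3 region in the cultures at any of these times. The lists at different times had been normalised separately, and no list held the regions of another time for these genes. Whether the change at Bdnf or Ntrk3 differed between 30 min, 2 hr and 5 hr was therefore not tested.

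**Figure D2:**
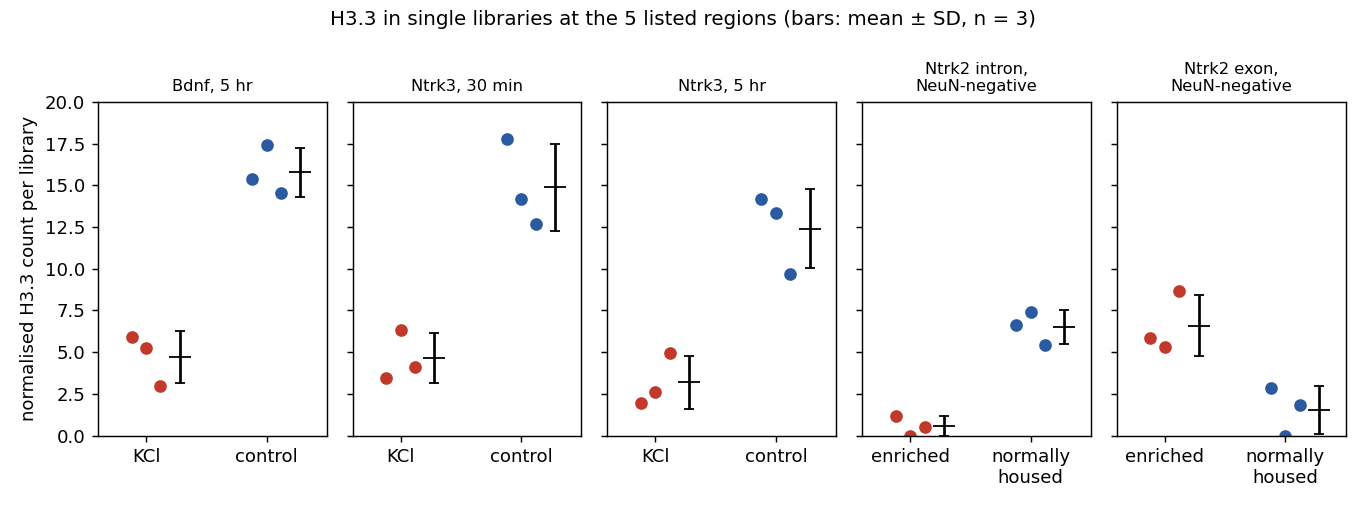
Normalised H3.3 counts of each library at the 5 listed H3.3 regions of Bdnf, Ntrk3 and Ntrk2, with KCl or enriched libraries left of control or normally housed ones and bars for the mean ± SD of 3 libraries. In each region the groups do not overlap, with losses in the first 4 panels and a gain at the Ntrk2 exon.

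The H3.3 regions of the cultures were rich in A and T. G and C made up 37.5% of the Bdnf region and 39.5% of the Ntrk3 region of 5 hr. All regions lost at 5 hr had a median of 44.2% and a lower quartile of 40.5%, and those gained had a median of 51.4%, so that both genes lay below the lower quartile of the losses. The Ntrk3 region of 30 min had 40.0%, against a median of 47.5% and a lower quartile of 44.0% over all losses at that time. The part that base composition has in these differences was not tested. The KCl and control groups at 30 min carried different lane numbers, which cannot be told apart from KCl. At 5 hr each of the lane numbers 6, 7 and 8 was carried by a KCl and a control library. Only lane numbers were used here, without flow cell or run, so an equal number need not be a shared lane.

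CATCH-IT, done at the same 5 hr of KCl, listed 25 regions in the 3 genes, 17 of them gained and 8 lost. Bdnf had 3 gained and 1 lost, Ntrk2 had 7 gained and 4 lost, and Ntrk3 had 7 gained and 3 lost. Gains made up 57.3% of the whole CATCH-IT list of 53020 regions. All 25 lay in introns. All 25 had an authors' adjusted p of 0.05 or less, as had 100% of that list, and in all 25 the groups did not overlap, as in 99.2% of it. Each gained region had 0 reads in all 3 control libraries and each lost region had 0 reads in all 3 KCl libraries. That pattern was the rule of the list, holding for 96.5% of its gained and 99.4% of its lost regions. Because the lower group was at 0, folds are given as lower bounds, with 3 reads per library taken as the limit that a count of 0 allows. The mean of the higher group enters these bounds as observed, without its own error. They therefore allow for the error of the 0 alone, and not for the regions having been listed on these libraries. The limit of 3 reads also takes reads as counted independently of each other. Certain read numbers recurred, as given below, and that condition was not tested. Each "at least" below holds only under it.

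In Bdnf the gained CATCH-IT region nearest to a promoter was chr2:109516661-109517000, 251 bp before the start of transcript Bdnf-005 (exon III) and 109 bp beyond the end of the first exon of Bdnf-002 (exon II). Its CATCH-IT level was 2.67, 6.39 and 5.44 in KCl libraries, against 0 in all control libraries. Of its 16 reads in KCl libraries, 12 were in the second library and 2 in each of the others. The signal was at least 1.68-fold higher in KCl. Its adjusted p was 2.30e-06 in the authors' deposited table. It was the only one of the 25 regions that the authors placed at a promoter.

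The other 3 Bdnf regions lay in the long intron stretch before the shared coding exon. The region chr2:109553241-109553620 had the smallest adjusted p of Bdnf, 4.15e-07 in the authors' deposited table. It held 8.02, 3.20 and 16.31 normalised counts in KCl libraries, which was 6 reads in each, against 0 in control libraries, at least 3.18-fold higher in KCl. Without the third KCl value the mean was 5.61 and the bound was 1.95. The region chr2:109560461-109560780 held 4.01, 6.39 and 2.72 in KCl libraries, or 3, 12 and 1 reads, against 0 in control libraries, at least 1.52-fold higher. The single lost region, chr2:109548781-109549140, was at 0 in KCl libraries, against 1.26, 4.16 and 14.19 in control libraries, or 4, 3 and 12 reads. It was at least 1.43-fold lower in KCl, with an adjusted p of 9.95e-05 in the authors' deposited table. Without the third control value the control mean was 2.71, under the limit that 0 allows, and no bound was left.

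In Ntrk2 the gained region with the smallest adjusted p, 4.15e-07 in the authors' deposited table, was chr13:59179861-59180240, between exons of the kinase-encoding 3′ portion of the gene. CATCH-IT there was 4.01, 10.65 and 5.44 in KCl libraries, or 3, 20 and 2 reads, against 0 in control libraries, at least 2.32-fold higher in KCl. The region chr13:58921721-58921940, in an early intron, was at 0 in control libraries. It held 9.35, 3.20 and 16.31 in KCl libraries, or 7, 6 and 6 reads, and the third value gave 56.5% of the summed level. The signal was at least 3.34-fold higher in KCl, and at least 2.18-fold without the third KCl value. The lost region with the smallest adjusted p, 4.26e-06, was chr13:59173181-59173560. It was at 0 in KCl libraries, against 2.52, 11.09 and 14.19 in control libraries, or 8, 8 and 12 reads, at least 2.02-fold lower in KCl. Along Ntrk2 the directions were not spread alike. All 4 lost regions lay beyond 59038391, the end of the transcript Ntrk2-203 that codes for a truncated receptor, and so did 2 of the 7 gained regions, while the other 5 gained regions lay before it. Beyond 58989840, the end of the transcript Ntrk2-201, lay all 4 lost and 3 of the 7 gained regions. The Ntrk2-203 end lies 130 kb from the start of a gene of 327 kb, so more of its length lies beyond it than before it. With so few regions this is a description, and it was not tested.

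In Ntrk3 the gained region with the smallest adjusted p, 6.58e-06 in the authors' deposited table, was chr7:85626161-85626540. It held 4.01, 6.92 and 2.72 in KCl libraries, or 3, 13 and 1 reads, against 0 in control libraries, at least 1.58-fold higher in KCl. The lost region with the smallest adjusted p, 1.94e-05, was chr7:85523861-85524160, at 0 in KCl libraries, against 1.58, 8.32 and 14.19 in control libraries, or 5, 6 and 12 reads. It was at least 1.75-fold lower in KCl. Without the third control value its mean was 4.95, and the bound was 1.08. Beyond 85447209, the 3′ end of the shorter coding transcript Ntrk3-002, lay 2 of the 7 gained and 1 of the 3 lost regions. Beyond 85594511, the 3′ end of the still shorter Ntrk3-003, a transcript with a retained intron, lay 3 of the 7 gained and all 3 lost regions. That end lies 129 kb from the start of a gene of 386 kb, so more of its length lies beyond it. These counts were not tested. At chr7:85441541-85441900, with 1, 8 and 1 reads in KCl libraries, the mean was at or under the limit that 0 allows, and no fold is given.

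**Figure D3:**
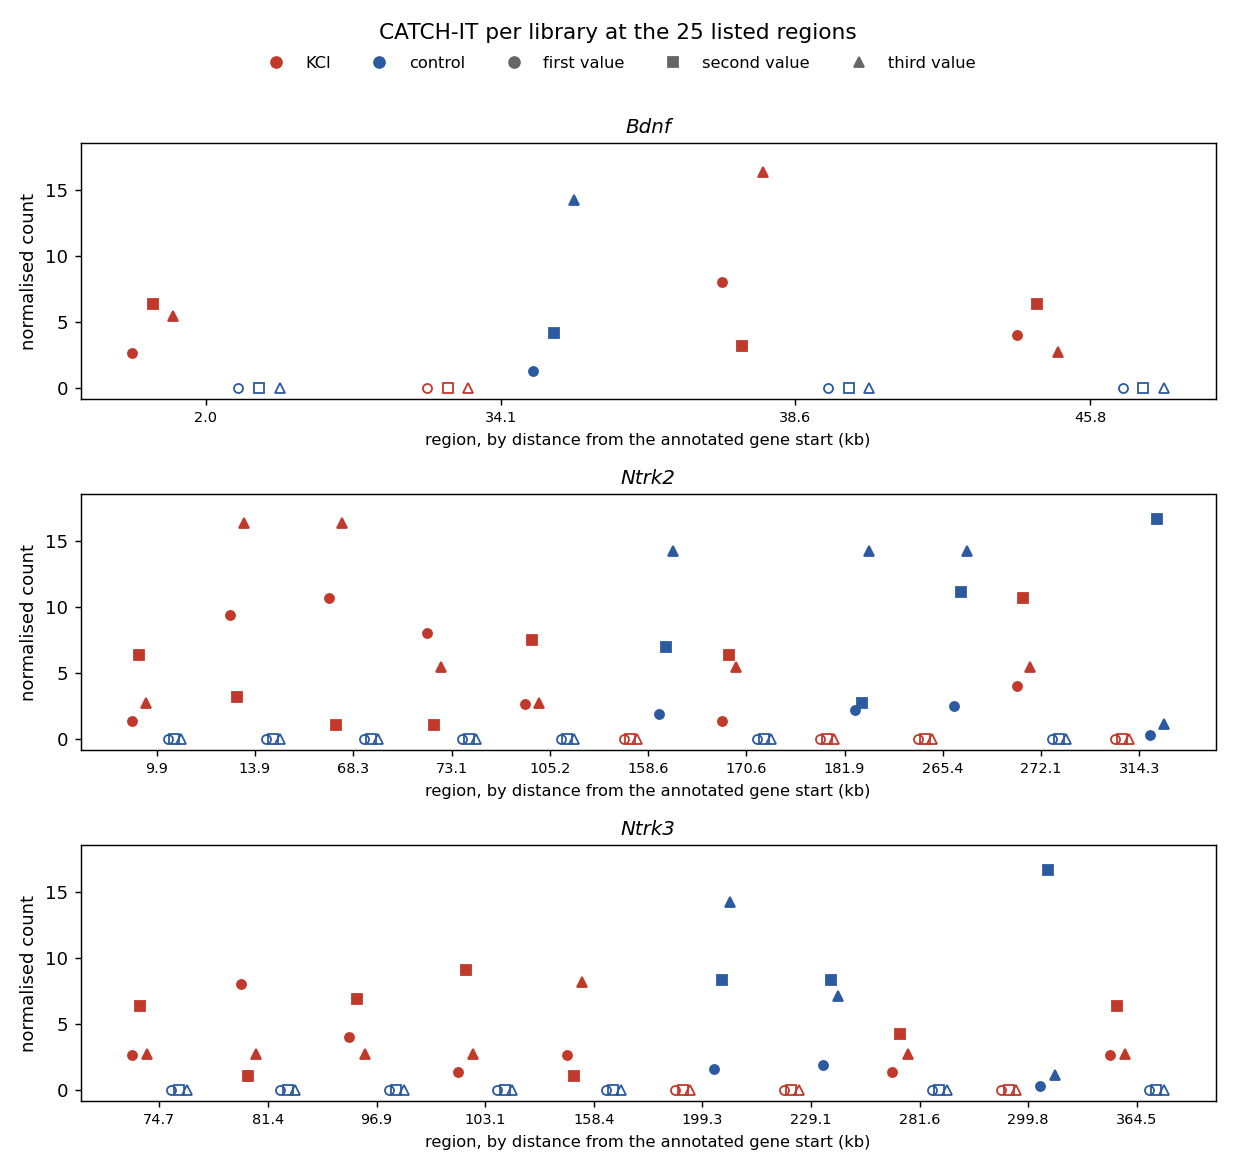
CATCH-IT normalised counts per library at the 25 listed regions of Bdnf, Ntrk2 and Ntrk3, ordered by distance from the gene start in kb, with KCl libraries left of control libraries, a marker shape for each value and open markers for 0. In every region all libraries of the lower group are at 0, and the higher group often has 1 library well above the others.

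Over all 17 gained regions the mean CATCH-IT level in KCl libraries was 2.77 to 9.62, from 7 to 25 reads summed over 3 libraries, with a median of 16 reads. Over the 8 lost regions the mean in control libraries was 5.77 to 9.27, from 14 to 28 reads, with a median of 20. Bounds on the fold ran between 1.21 and 3.34 for the 16 gained regions above the limit and between 1.26 and 2.02 for the 8 lost ones. The 25 differences are thus present or absent signals of few reads. In 14 of the 17 gained and 7 of the 8 lost regions a single library gave more than 50% of the summed level, against 75.5% and 82.1% of the gained and lost regions of the whole list. Leaving out 1 library value moved the difference by over 1.5 times in 8 of the 17 gained regions, by up to 2.15 times, and in 6 of the 8 lost regions, by up to 8.06 times. Leaving out 1 library value also removed the fold bound in 7 gained and 6 lost regions, which were not all the same regions. The largest move was at the Ntrk2 region chr13:59222081-59222420 and the Ntrk3 region chr7:85423301-85423640, each at a control mean of 6.04, and at 0.750 without the second control value. The second KCl value was the highest in 11 of 17 gained regions, against 37.1% in the whole list. The third control value was the highest in 5 of 8 lost regions, against 72.8% in the whole list.

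Read numbers of exactly 6 and exactly 12 recurred in these genes. Of the 75 values above 0, 13 stood for 6 reads and 13 for 12 reads, together 34.7%. Among the 160599 values above 0 in all other CATCH-IT regions the share was 36.0%. Bdnf had 6, 6 and 6 reads in KCl libraries at chr2:109553241-109553620, and Ntrk3 had 6, 6 and 6 reads in control libraries at chr7:85493981-85494360. The name of the deposited CATCH-IT table carries a duplicate setting of 6. What part repeated reads have in the values was not tested.

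**Figure D4:**
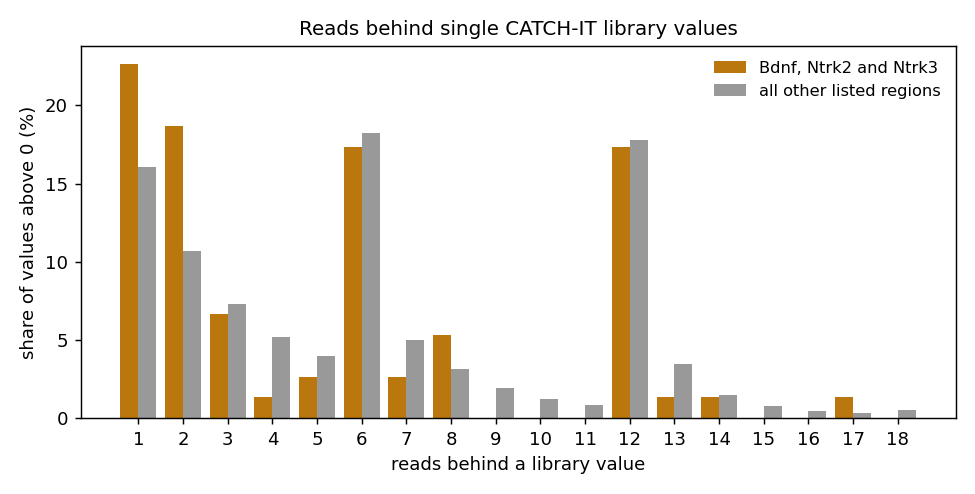
Share in percent of CATCH-IT library values above 0 by the number of reads behind them, for the 25 regions of Bdnf, Ntrk2 and Ntrk3 (75 values) and for all other listed regions, with the axis ending at 18 reads and 1 Ntrk2 value of 20 reads beyond it. In both sets values pile up at 6 and at 12 reads, besides 1 and 2.

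Bdnf, the shortest of the 3 genes, had the most CATCH-IT regions for its length. It had 7.64 regions per 100 kb, Ntrk2 had 3.36 and Ntrk3 had 2.59. Among 1900 other protein-coding genes within 1.25 times the span of Bdnf the median was 1 region, with quartiles of 0 and 2, and Bdnf had 4. Among 350 genes of the span of Ntrk2 the median was 6.5, with quartiles of 4.25 and 9, and Ntrk2 had 11. Ntrk3, with 10, lay between the quartiles of 5 and 11 of 288 genes of its span, whose median was 8. At least 1 CATCH-IT region was listed for 39.4% of protein-coding genes.

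No CATCH-IT region overlapped an H3.3 region in the 3 genes. How often such overlaps occur over the whole lists is not given, so this describes these genes only. The nearest CATCH-IT gain to the Bdnf H3.3 loss of 5 hr was the region beside exon III, 2461 bp away, and the nearest CATCH-IT loss was 29081 bp away. For the Ntrk3 H3.3 loss of 5 hr the nearest CATCH-IT gain was 6181 bp away and the nearest loss 108561 bp away. For the Ntrk3 loss of 30 min these distances were 7861 bp and 72601 bp. The KCl groups of H3.3 and CATCH-IT at 5 hr were separate libraries. In CATCH-IT all KCl libraries carried lane number 1 and all control libraries lane number 5, which cannot be told apart from KCl.

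In the hippocampus, Ntrk2 was the only one of the 3 genes with a listed H3.3 region, and both of its regions were in NeuN-negative nuclei. Non-neuronal cells, astrocytes above all, are known to make mainly the truncated TrkB receptor. The lost region lay in an intron 47843.5 bp from the gene start, or 14.6% along the gene. H3.3 there was 1.16, 0.00 and 0.54 in enriched libraries, against 6.63, 7.43 and 5.43 in normally housed libraries. These stood for 1, 0 and 1 reads in enriched and 7, 11 and 6 reads in normally housed libraries. Scaled for depth, the enriched over normally housed ratio of the summed reads was 0.0984, with an exact 95% interval of 0.0113 to 0.396 that covers counting error only. The region was listed for differing on these same libraries, and the interval does not allow for that. The mean was 0.567 ± 0.580 in enriched and 6.50 ± 1.01 in normally housed mice (SD, n = 3 each). In the authors' deposited table the ratio to input was 0.23 in enriched and 1.47 in normally housed mice, and the log2 fold change was -3.51, adjusted p 0.00556.

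The gained region, chr13:59033401-59033600, was the only exonic one of the 30. It lay in the last exon of Ntrk2-203, an exon of 5008 bp used by no other annotated transcript, and covered 18 of its 35 coding bases and 182 bases of its 3′ UTR. H3.3 was 5.82, 5.28 and 8.67 in enriched libraries, against 2.84, 0.00 and 1.81 in normally housed libraries. The 5, 2 and 16 reads of enriched libraries stood against 3, 0 and 2 reads of normally housed libraries, so that the second enriched value of 5.28 rested on 2 reads. The mean was 6.59 ± 1.82 in enriched and 1.55 ± 1.44 in normally housed mice (SD, n = 3 each). The depth-scaled ratio of the summed reads was 5.43 with an exact 95% interval of 2.02 to 18.3. This interval too covers counting error only and does not allow for the region having been listed on these libraries. The authors' deposited table gave a ratio to input of 3.66 in enriched and 0.90 in normally housed mice and a log2 fold change of 2.09, adjusted p 0.00776.

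Both Ntrk2 regions passed an adjusted p of 0.05, beside 99.8% of the NeuN-negative list, and in both the groups did not overlap, as in 100% of that list. Gains made up 70.7% of the list, of which Ntrk2 had 1 gain and 1 loss. G and C made up 47.0% of the lost region, against a median of 48.0% over all losses, and 54.0% of the gained region, which lay above the upper quartile of 49.6% of all gains. The nearest CATCH-IT regions of Ntrk2 were gains, 20141 bp from the lost and 20121 bp from the gained region. All enriched libraries carried lane number 2 and all normally housed ones lane number 1, which cannot be told apart from housing. At least 1 region was listed for 2.39% of protein-coding genes in NeuN-negative and for 3.49% in NeuN-positive nuclei. For H3.1/2 it was 0.0180%.

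Of the other genes of the neurotrophin pathway, 73 of 75 in the lists by role were annotated, and 4 had a listed H3.3 region at 30 min, 5 at 2 hr and 5 at 5 hr. These were 5.48%, 6.85% and 6.85% of the annotated genes, beside 1.43%, 1.81% and 1.98% of all protein-coding genes, and gene length was not taken into account. All 4 at 30 min were losses. They included Sorcs2, a sorting receptor that binds pro-BDNF (log2 fold change -1.78), Grb2, an adaptor that links Trk receptors to Ras (-1.74), and the kinase gene Rps6ka2 (-1.99), in the authors' deposited table. All 5 at 2 hr were losses too, on a list of which gains made up 14.4%. They included Sorcs3 (-1.61), Sorcs1 (-1.99), Pcsk2, a protease that cleaves pro-proteins (-2.30), and Rcor1 (-2.23), whose protein is a corepressor of REST, a repressor known to act on Bdnf transcription. At 5 hr Rapgef1 (-2.07), Shc4 (-2.03), Rcor1 (-2.11) and the transcription factor gene Mef2c (-1.80) were listed as lower in KCl and the kinase gene Prkcd as higher (1.84), with 0 of 5 at an adjusted p of 0.05 or less. The ligand and receptor genes outside the 3 members had no H3.3 region at any of these times.

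In NeuN-negative nuclei 4 pathway genes were listed, or 5.48% of the 73 annotated, beside 2.39% of all protein-coding genes. Gene length was not taken into account, and gains made up 70.7% of that list. Grb2 (2.70), Sos2 (3.16) and Gab2 (2.93), which encode adaptors and the exchange factor between Trk receptors and Ras, gained H3.3 in enriched mice, and Sorcs2 had a gain (2.17) and a loss (-5.04), all as log2 fold changes in the authors' deposited table. In NeuN-positive nuclei Frs2 (1.78), Plcg2 (2.02) and Prkcd (1.59) gained and Grb2 lost H3.3 (-2.13). These 4 genes were 5.48% of those annotated, beside 3.49% of all protein-coding genes, on a list with 1179 gains among 1642 regions. The NeuN-positive groups had 2 libraries each, and the reads behind the enriched values could not be found. Enriched libraries carried lane numbers 6 and 7 and normally housed ones 3 and 5, which cannot be told apart from housing. In the same nuclei 1 of 7 astrocyte markers (Aldh1l1, 1.96) and 1 of 6 oligodendrocyte lineage markers (1.67) gained H3.3 in enriched mice. Their part in the pathway differences was not tested. In CATCH-IT 46 of the 73 genes had a region, or 63.0% beside 39.4% of all protein-coding genes, 15 with gains alone, 8 with losses alone and 23 with both.

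The labelled cell types could not be checked by levels, because the lists hold regions that differ and not all regions. Of the marker genes, 1 of the 4 annotated for neurons (Snap25, log2 fold change -2.07) and 1 of 3 for endothelial cells (Pecam1, 1.98) had an H3.3 region at 30 min. None of the neuron, astrocyte, oligodendrocyte lineage, microglia or endothelial markers had one at 5 hr. In NeuN-negative nuclei the microglial gene P2ry12 lost H3.3 in enriched mice (-3.22), beside the 2 Ntrk2 regions, and it was 1 of the 4 microglial markers. The part of cell makeup in the Ntrk2 differences was not tested.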

How the data were processed

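The series held 66 libraries. The authors mapped reads to the mouse build mm9, and the submitters' processing notes name Bowtie 0.12.7 and bedtools 2.16.2. Which caller found the regions was not stated in the sources used here. Sample titles of the H3.3 libraries at 30 min, at 2 hr and of NeuN-negative nuclei name duplicate removal per the labels, and those of CATCH-IT and H3.3 at 5 hr do not. The 7 deposited lists hold, per the file headers, the authors' normalised read counts of each library, packed in one cell, and group means as a coverage signal. They also hold the authors' ratio of each mean to input, infinite where input was 0, and the authors' log2 fold change. Each region had a deposited p-value, also in adjusted form, and both were taken unchanged. Normalisation was done within each list. Unused columns of per-sample values: 0.

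Computed here were means, SDs, places in the mm9 gene models, distances and base content with Python 3.11.15, pandas 2.3.3 and numpy 2.4.6. The normalised count of 1 read was found as the step of which low values were whole multiples within 0.1, after a trial on simulated data. It was found in the lists used, though not for H3.1/2 or enriched NeuN-positive libraries. No region was tested anew, since the lists were chosen on these libraries and 3 against 3 cannot give an exact permutation p below 0.1. In the lists of 30 min, 2 hr and NeuN-negative nuclei, the deposited distance of minus-strand genes was taken from the lower coordinate in 100% of regions, so places were recomputed. The labels give 4 control libraries of 30 min, among them a repeat of number 1, whereas the list has 3 values. Named regions were all H3.3 regions and, in CATCH-IT, per gene the gain and loss of smallest adjusted p and any at a promoter or exon; other regions named were chosen after their values were seen. Some pathway genes are counted but not reported by name here. The members, lists and tests were chosen with earlier results of these data known. Intervals cover counting error only, limits only that of the group at 0, and both take reads as independent. Neither allows for the choice of regions on these libraries.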

Additional observations from a re-analysis of the deposited data

How the results depend on the processing

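No paired analysis was possible because the library values are packed without library names or replicate numbers. Each of the 30 regions kept its direction when any 1 of the 6 library values was left out, with medians in place of means and with a pseudocount of 1, and the 8 with finite ratios kept it by the difference of the ratios to input. At an adjusted p of 0.01 or less, 0 member regions were called at 30 min, against 1 at 0.05. At 0.1, 1 was called at 5 hr, the Bdnf region, against 0 at 0.05. With an absolute log2 fold change of 2 or more, 0 lost regions were left at 30 min and 0 at 5 hr, against 1 and 2. With an adjusted p of 0.05 or less, 0 of the 5 other pathway genes were left at 5 hr. These follow from the stricter or looser thresholds. The shares of the whole lists at 0.01, at 0.1 and at a log2 fold change of 2 are not given, so these counts set no region apart. Since the regions were listed for differing on these libraries, keeping a direction is no sign of stability. In CATCH-IT the size was kept less well: leaving out 1 value moved the difference by over 1.5 times in 8 of 17 gained and 6 of 8 lost regions, by up to 8.06 times, while the 5 H3.3 regions moved by at most 1.26 times. Depth limits both: 1 read was worth up to 2.72 normalised counts in CATCH-IT and 2.64 in NeuN-negative libraries.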

Other observations

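CATCH-IT regions also lay within 50 kb of the 3 genes without being assigned to them. Downstream of Bdnf, 10.0 kb from its end, a region had 0 in KCl and 7.23 normalised counts in control libraries as group means. Downstream of Ntrk2, 15.9 and 43.8 kb from its end, 2 regions had means of 4.75 and 6.08 in KCl and 0 in control libraries. Downstream of Ntrk3, 7.56 and 46.7 kb from its end, 2 regions had 0 in KCl and means of 6.43 and 6.33 in control libraries. Upstream of Ntrk3, 3 regions lay in the neighbouring gene E430016F16Rik. Those 19.3 and 45.7 kb from the Ntrk3 start had 0 in KCl and means of 5.61 and 6.36 in control libraries. The region 10.6 kb from the Ntrk3 start had a mean of 14.6 in KCl and 0 in control libraries, higher than at any of the 25 regions inside the 3 genes. For these flanking regions only group means are given, so how far a single library made up a mean is not shown.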
